A study of Mus musculus with 18 samples.

Results

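Bone marrow-derived macrophages (BMDMs) labelled wild type were compared after coculture with apoptotic cells (ACs) or with non-apoptotic cells (NACs), with 3 biological replicates per group. The members were therefore 6 of the 18 RNA-seq libraries of the study, chosen by their titles. The control genotype is labelled WT, and the methods of the study describe these mice as HDAC3 f/f, in which part of Hdac3 is flanked by loxP sites and no Cre is present. Bone marrow was differentiated in medium conditioned by L929 cells, a mouse fibroblast line that secretes macrophage colony-stimulating factor. K562 cells, a human leukemia line, were exposed to UV-B for 15 min and kept for 2 h before use as ACs, and K562 cells that were not irradiated served as NACs. Each was left on the macrophages for 45 min and washed off, and the macrophages were kept for a further 5 h before RNA isolation. Untreated control macrophages (3 libraries) gave the level without added cells. The AC and NAC libraries labelled HDAC3 knockout (KO), 6 in all, entered the test of 1 comparison. Together with the 3 untreated libraries labelled KO, they also entered the check of Hdac3 and of which libraries are alike, and a fit of all 18 libraries. The prey cells were human and the reads were assigned to mouse genes, and how many reads of the prey were counted on mouse genes was not measured.

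Efferocytosis is the removal of dying cells by phagocytes. Macrophages bind phosphatidylserine on the dying cell directly through some receptors, or by way of soluble bridging molecules such as GAS6, MFG-E8 and C1q. The receptors MERTK and AXL bind it by way of GAS6. The macrophages then engulf the dying cell by remodelling actin and digest it in lysosomes. Cholesterol from the digested cell activates the liver X receptors (LXRs), which induce cholesterol exporters and are known to raise MERTK, and efferocytosis is known for dampening inflammatory cytokines.

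Total counts were 11836451 to 18306347 in the NAC libraries and 9385094 to 14929827 in the AC libraries. Levels are given in CPM, counts relative to the scaled total of a library, with the scaling taken over the 9 control libraries, in the order of replicates 1, 2 and 3. Hdac3, the gene deleted in the other genotype, did not separate the labels. Its level was 48.7, 45.6 and 11.7 CPM in the libraries labelled NAC, 7.64, 39.7 and 29.5 CPM in those labelled AC and 3.68, 49.9 and 31.8 CPM in those labelled untreated. On a scale over all 18 libraries, Hdac3 ranged from 3.38 to 48.8 CPM in libraries labelled WT and from 4.66 to 74.6 CPM in those labelled KO. Counts over the whole gene include the parts that the deletion leaves in place, so they check the label only in part. The libraries labelled NAC replicate 3 and AC replicate 1 had the lowest Hdac3 of their groups, and the counts that lead the account below are also given without these 2 libraries, an alternative chosen after the data were seen. Across genes, the libraries labelled NAC replicates 1 and 3 were most like a library of the other genotype label, KO untreated replicate 2 (Pearson r = 0.951 and 0.969), and that labelled NAC replicate 2 was most like WT untreated replicate 3 (0.973). The library labelled AC replicate 1 was most like WT untreated replicate 1 (0.959), and AC replicates 2 and 3 were most like each other (0.963). Macrophage markers were abundant in all 6 libraries: the 18 genes summed to 18990 to 25460 CPM with NACs and 14720 to 18320 CPM with ACs. This sum was thus lower in every AC library, and 4 of the 18 markers (22.2% beside 4.5% of all genes tested) were lower and 0 higher without overlap. The median member of the bridging, lysosomal and oxidative phosphorylation lists was likewise lower in every AC than in every NAC library, and the part of the markers in those results was not tested. Of 16 K562 or erythroid genes in their mouse form, 5 passed the filter on low counts, and the list summed to 25.9 to 48.0 CPM with NACs and 26.3 to 100.5 CPM with ACs. Hba-a1 of that list was at 40.6 CPM in the library labelled AC replicate 3 against 0.112 to 0.899 CPM in the other 5. Fibroblast genes, 8 of 10 of them tested, summed to 32.4, 48.9 and 54.9 CPM with NACs and to 8.88, 215 and 108.6 CPM with ACs. B cell genes, 5 of 10 tested, reached 447.4 CPM in the library labelled NAC replicate 3 against 37.2 to 107.6 CPM in the other 5. Granulocyte genes, 13 of 14 tested, summed to 637.5 to 1256 CPM with NACs and 426.5 to 1036 CPM with ACs. The part of these other cells in the results below was not tested, and in bulk RNA fewer cells of a type and less RNA per cell cannot be told apart.

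After 5 h, no gene differed between ACs and NACs at an adjusted p under 0.05. In edgeR's quasi-likelihood test 11844 genes were tested, and 0 passed after Benjamini-Hochberg adjustment, with a smallest adjusted p of 0.898. DESeq2 and limma-voom also called 0. At an unadjusted p under 0.05, edgeR counted 493 genes (4.16%), of which 283 (2.39%) were higher and 210 (1.77%) lower with ACs, while limma-voom counted 478. DESeq2 counted 756 of the 25331 genes with a count, and 626 of the 11844 when given the same filtered genes, an alternative added after the data were seen. All 3 AC libraries lay above all 3 NAC libraries for 692 genes (5.84%) and below them for 533 (4.5%). Such a gene has an exact permutation p of 0.1 (two-sided), the smallest that 3 libraries against 3 allow. Fold changes are given as log2 of AC over NAC, for single genes with the standard error (SE) or the 95% interval of the edgeR fit. They were beyond 1 in 640 genes, 395 higher and 245 lower, and their median was 0.05. The precision was low: the bounds of the 95% interval lay a median of 0.90 from the estimate, and only 2456 genes (20.7%) had an interval that lay within 1 on either side of 0, so that a 2-fold change could be left out for those alone. The biological coefficient of variation was 0.391. Libraries correlated at 0.935 to 0.951 within the NAC group, at 0.907 to 0.969 within the AC group and at 0.901 to 0.961 between the groups, so the ranges overlapped. Without the libraries labelled NAC replicate 3 and AC replicate 1, 3 genes were called (Gm8210, higher, and Elavl4 and Hand2, lower). Elavl4 was also called without the library labelled AC replicate 1 alone. Its counts were 65, 42 and 67 with NACs and 16, 0 and 0 with ACs.

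**Figure D1:**
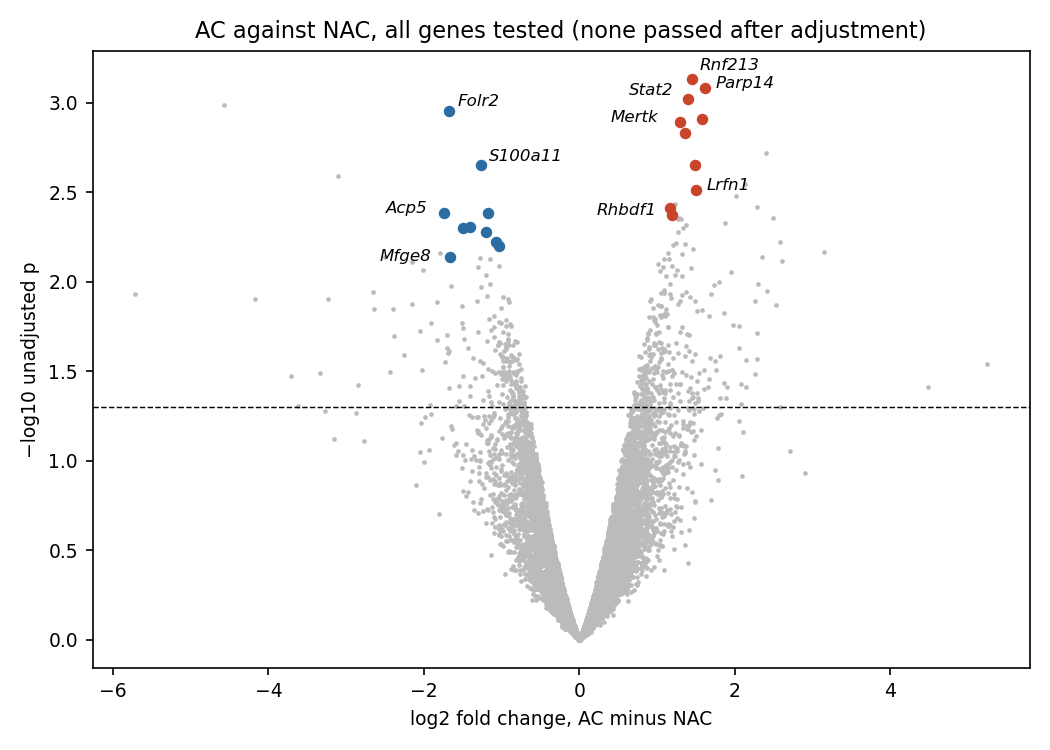
Log2 fold change of ACs against NACs (horizontal) and −log10 of the unadjusted p (vertical) for the 11844 genes tested in control macrophages. Red and blue points are the 10 genes of smallest p in each direction among protein-coding genes with a mean of at least 5 CPM, the dashed line is an unadjusted p of 0.05, and no gene passed after adjustment.

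None of the 10 genes with the smallest p for a higher level with ACs passed the adjustment. Of these 10, Stat2 belongs to the list of interferon response genes and Mertk to that of receptors for apoptotic cells. Rnf213, Parp14 and Dtx3l are in none of the lists and are described here with Stat2, as genes known to be induced by interferon, a grouping made after their values were seen. The named genes are the 10 of smallest unadjusted p in each direction among protein-coding genes with a mean of at least 5 CPM. Rnf213 (chr11:119393100-119487418 on GRCm38, the build of the annotation used throughout), a large ubiquitin ligase induced by interferon, was at 26.8, 45.1 and 35.8 CPM with NACs and 101, 83.6 and 106 CPM with ACs. The AC libraries were all higher, by 1.44 on the log2 scale (95% interval 0.73 to 2.15). Parp14 (chr16:35832874-35871544), an ADP-ribosyltransferase, was at 13.4, 21.7 and 10.6 CPM with NACs and 60.9, 35.9 and 43 CPM with ACs, a difference of 1.62 (SE 0.38). Dtx3l (chr16:35926511-35939151), a ubiquitin ligase that pairs with PARP9 in interferon responses, was at 7.84, 12.7 and 9.82 CPM with NACs and 28.6, 24.1 and 24.8 CPM with ACs (1.36, SE 0.34). Stat2 (chr10:128270576-128292849) encodes a signal transducer of the factor that binds interferon-stimulated response elements. Its level was 12.3, 18.3 and 13.4 CPM with NACs and 37.6, 42.2 and 34.9 CPM with ACs, and the 2 groups were well apart (1.39, 95% interval 0.68 to 2.10). In untreated macrophages Stat2 was at 50.3, 41.9 and 28.4 CPM, near the AC and above the NAC libraries. Rnf213 (129.5, 154 and 79.1 CPM), Parp14 (70.3, 68 and 36.5 CPM) and Dtx3l (29.1, 29.2 and 18.2 CPM) were likewise above all NAC libraries when no cells had been added.

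Over the list of interferon response genes, 44 of 47 passed the filter and 0 were called. The median log2 fold change was 0.42 beside 0.05 over all genes tested, and 33 of the 44 (75%) were positive beside 53.6%. The AC libraries lay above the NAC libraries for 10 members (22.7% beside the 5.84% of all genes) and below them for 0, and 9 members had an unadjusted p under 0.05, all of them higher with ACs, as did 2.39% of all genes. The median member stood at −0.13, −0.02 and −0.73 with NACs and at 0.42, 0.26 and 0.05 with ACs, on log2(CPM + 1) relative to its mean over the 6 libraries. The library labelled NAC replicate 3 was thus the lowest, and without it the list's median was 0.118. Without the library labelled NAC replicate 2 it was 0.847, and without NAC replicate 3 and AC replicate 1 it was 0.112. Members besides Stat2 whose groups did not overlap, chosen for display after their values were seen, included sensors and effectors of the antiviral state. Ddx58, which encodes the RNA sensor RIG-I, was at 6.16, 12.3 and 6.99 CPM with NACs and 18.6, 21.6 and 18.2 CPM with ACs (1.21, SE 0.37). Rsad2, which encodes the antiviral enzyme viperin, was at 48.3, 49.99 and 23 CPM with NACs and 208, 52.6 and 54.8 CPM with ACs (1.38, SE 0.52). Ifit3, an antiviral tetratricopeptide protein, was at 44.2, 53.6 and 12.4 CPM with NACs and 111, 103 and 69 CPM with ACs (1.37, SE 0.47). For these genes the groups were separate, but for Rsad2 the lowest AC library was close to the highest NAC library, and its difference was 0.41 without the library labelled AC replicate 1. Cmpk2, a mitochondrial nucleotide kinase induced with Rsad2, was at 14.8, 22.6 and 10.6 CPM with NACs and 62.7, 31.6 and 29.8 CPM with ACs (1.37, SE 0.41). Slfn5, a Schlafen family member, was at 27.7, 31.5 and 18.2 CPM with NACs and 76, 35.5 and 52.7 CPM with ACs (1.09, SE 0.37). Gbp5, a guanylate-binding protein, had the largest difference in the list and the lowest level of those named here, with 0.56, 0.949 and 0.629 CPM with NACs and 4.16, 1.66 and 1.23 CPM with ACs (1.68, SE 0.67). The members at the other end were lower with ACs in the mean, with overlapping groups: Irf7, the regulator of interferon production, at 541, 218 and 370.4 CPM with NACs and 130, 319.5 and 191 CPM with ACs (−0.81, SE 0.43), and Bst2, which tethers budding virions, at 1173, 601 and 822 CPM with NACs and 253, 751 and 527 CPM with ACs (−0.75, SE 0.43). The interferon-inducible Ifi27l2a, which is outside the list, was among the 10 genes of smallest p on the lower side, at 1563, 1293 and 461 CPM with NACs and 291, 477 and 392 CPM with ACs (−1.502, SE 0.45). The library labelled NAC replicate 3 was inside the range of the AC libraries for Ifi27l2a, so its groups overlapped. The difference of Irf7 was −0.46 without the library labelled NAC replicate 1, that of Bst2 −0.44 and that of Gbp5 0.999 without AC replicate 1.

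Interferon-stimulated response elements carry the letters GAAA, any 2 bases and again GAAA, and promoters of the list were searched for them on both strands, where matches may overlap. The windows were the RefSeq promoters of GRCm38.p6, from 250 bases before to 50 bases after each start site. At least 1 match was found in 16 of 35 tested members of the list with a promoter sequence (45.7%), in 349 of 8929 tested genes (3.91%), and in 1131 of 32851 promoter windows searched (3.44%). Among the 10 genes named as higher, 7 had a promoter sequence and 1 a match (Stat2), and among the 10 named as lower, 9 had a sequence and 0 a match. A match is a description of the letters and not a binding site. Of the 10 members whose groups did not overlap, 8 had a promoter sequence and 6 of these a match, while Cmpk2 and Isg20 had none. In Ddx58 the match lay within the transcript, beginning 2 bases after the start site. The stretches of the other 5, chosen because they hold a match before the start site, are shown with 20 bases on either side, read 5′ to 3′ on the strand of the gene and with the matches in capitals.
Stat2, chr10:128270256-128270305, plus strand: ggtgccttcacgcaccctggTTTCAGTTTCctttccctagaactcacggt
Ifit3, chr19:34583353-34583436, plus strand: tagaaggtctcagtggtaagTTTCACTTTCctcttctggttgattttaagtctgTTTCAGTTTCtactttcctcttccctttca
Rsad2, chr12:26456543-26456592, minus strand: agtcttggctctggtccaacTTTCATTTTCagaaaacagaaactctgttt
Gbp5, chr3:142496749-142496798, plus strand: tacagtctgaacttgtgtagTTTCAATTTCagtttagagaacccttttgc
Slfn5, chr11:82951927-82951976, plus strand: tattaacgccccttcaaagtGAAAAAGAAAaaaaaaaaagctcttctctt
In Stat2 the match began 222 bases before the start site, in Rsad2 120, in Gbp5 165 and in Slfn5 155 bases before it, and in Ifit3 the 2 matches began 156 and 122 bases before it. Bst2, whose level was lower in the mean with ACs, held 2 overlapping matches as well, so that the letters did not go with 1 direction.

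In the edgeR fit of the 6 libraries, receptors for nucleic acids and other microbial patterns had the highest median of the 26 pathway lists. The interferon list lay above them with limma-voom (0.521 beside 0.40). It also did so without the library labelled NAC replicate 2 (0.847 beside 0.678) and without AC replicate 1 (0.324 beside 0.266). With the replicate number as a block it was 0.512 beside 0.42, and with that block and an offset for GC content and length 0.382 beside 0.322. Without both NAC replicate 3 and AC replicate 1 it was 0.112 beside 0.0621. Other lists then lay above the pattern recognition list as well, among them receptors for apoptotic cells (0.16) and LXR targets (0.144). Of 30 pattern recognition genes tested, 23 were positive, the median was 0.51, and 0 were called. The groups did not overlap in 4 members that were higher (13.3% beside 5.84% of all genes) and 1 that was lower (3.33% beside 4.5%). Tlr7, the endosomal receptor of single-stranded RNA, was at 9.3, 23.5 and 15.4 CPM with NACs and 64.8, 23.5 and 29.7 CPM with ACs (1.29, SE 0.45). Tlr8, its close relative, was at 3.36, 11.6 and 7.05 CPM with NACs and 23.1, 9.55 and 26.3 CPM with ACs (1.43, SE 0.49), and here the groups overlapped. Tlr1, which pairs with TLR2 for lipopeptides, was at 4.71, 5.93 and 3.84 CPM with NACs and 9.21, 10.2 and 10.2 CPM with ACs (1.05, SE 0.38). Irak3, which restrains Toll-like receptor signalling, was at 11.7, 12.7 and 7.74 CPM with NACs and 27.5, 20.7 and 14.9 CPM with ACs (0.98, SE 0.37). Tlr7, Tlr1 and Irak3 were picked after their values were seen. The groups of Tlr7 were apart by less than 0.1 CPM, and its difference was 0.73 without the library labelled AC replicate 1. Clec4e, which encodes the receptor Mincle for dead cells and fungi, was at 77.1, 103 and 14.7 CPM with NACs and 329.6, 107 and 70.9 CPM with ACs (1.39, SE 0.68), and its difference was 0.45 without the library labelled AC replicate 1. On the lower side Cd14, the lipopolysaccharide co-receptor, was at 2898, 1678 and 1968 CPM with NACs and 1430, 1401 and 1054 CPM with ACs (−0.74, SE 0.36) and the adaptor Ticam1 at 55.6, 25.6 and 47.1 CPM with NACs and 18, 44.1 and 28.6 CPM with ACs (−0.48, SE 0.41). The difference of Ticam1 lay between −0.23 without the library labelled AC replicate 1 and −0.87 without AC replicate 2. That of Cd14 was −0.49 without NAC replicate 1. Without the library labelled AC replicate 1 the list's median was 0.266, and without that and NAC replicate 3 it was 0.0621.

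Of the receptors for apoptotic cells, Mertk stood apart. Mertk (chr2:128698956-128802894), the receptor tyrosine kinase that binds GAS6 and protein S on dying cells, was at 42.7, 57.3 and 62.5 CPM with NACs and 144, 124 and 127 CPM with ACs, a difference of 1.29 (95% interval 0.61 to 1.97). The lowest AC library was far above the highest NAC library, and untreated macrophages, at 88.8, 106 and 62.2 CPM, lay below the AC libraries. Mertk was the fifth of the 10 genes of smallest p on the higher side and kept its direction under each alternative, between 1.09 and 1.51 with all libraries and between 1.14 and 1.39 with libraries left out. The related receptor Axl was at 32.7, 53 and 45.8 CPM with NACs and 22.8, 84.2 and 63.8 CPM with ACs (0.40, SE 0.44), and Lrp1, a receptor for calreticulin, was at 114, 153 and 225 CPM with NACs and 243, 167 and 264 CPM with ACs (0.46, SE 0.36). For both the groups overlapped, and the difference of Lrp1 was 0.25 without the library labelled NAC replicate 1. Cd36, the scavenger receptor that the study is concerned with, was at 59.9, 235 and 188 CPM with NACs and 351, 93.4 and 214 CPM with ACs (0.45, SE 0.52), with the highest and 1 of the lowest values in the same group. Trem2, a lipid-sensing receptor, went the other way, with 2470, 1595 and 2294 CPM with NACs and 1039, 1064 and 1190 CPM with ACs (−0.94, SE 0.34), and every AC library was below every NAC library. Marco, a scavenger receptor at low level, was at 2.35, 0.633 and 0.315 CPM with NACs and 10.2, 2.59 and 0.838 CPM with ACs (2.08, SE 0.90), with overlapping groups, and its difference was 0.70 without the library labelled AC replicate 1. Ager (2.58, SE 1.16) rested on 16.1 CPM in the library labelled AC replicate 3 against 0.464 to 1.79 CPM in the others, and was reversed without it. Plaur, which encodes the urokinase receptor, was at 29.7, 19.4 and 55.3 CPM with NACs and 37.5, 19.3 and 18.2 CPM with ACs (−0.48, SE 0.43), and the integrin subunit Itgb3 at 4.59, 4.11 and 4.72 CPM with NACs and 1.12, 5.24 and 5.03 CPM with ACs (−0.20, SE 0.54). Over the list, 20 of 24 receptors were tested, 11 were positive, the median was 0.18, and the groups did not overlap in 2 that were higher (10% beside 5.84% of all genes) and 1 that was lower (5% beside 4.5%). The list's median was 0.0466 without the library labelled NAC replicate 1, 0.359 without NAC replicate 2 and −0.0759 without AC replicate 3.

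The bridging molecules were nearly all lower with ACs in the mean. Of 15 genes 13 were tested, 12 were negative and the median was −0.64, while 0 were called. The AC libraries lay below the NAC libraries for 5 members (38.5% beside 4.5% of all genes) and above them for 0. The median member stood at 0.76, 0.03 and 0.17 with NACs and at −0.39, −0.14 and −0.25 with ACs. Mfge8 (chr7:79133768-79149060), which links phosphatidylserine to integrins, was at 970.3, 429.9 and 2086 CPM with NACs and 368, 219 and 508 CPM with ACs (−1.66, 95% interval −2.80 to −0.53). Its groups overlapped because the lowest NAC library was below the highest AC library, and untreated macrophages had 151, 119 and 484 CPM. The difference of Mfge8 was −0.94 without the library labelled NAC replicate 3. Anxa2, a phospholipid-binding annexin, was at 776, 539 and 822 CPM with NACs and 316, 385 and 377 CPM with ACs (−0.98, SE 0.34). Of the chains of complement C1q, C1qb was at 9730, 4066 and 5285 CPM with NACs and 4213, 4535 and 3396 CPM with ACs (−0.64, SE 0.39), with overlapping groups, C1qc was at 2560, 1132 and 1520 CPM with NACs and 844, 1123 and 876 CPM with ACs (−0.86, SE 0.38) and C1qa at 5878, 2738 and 3248 CPM with NACs and 2204, 2593 and 1920 CPM with ACs (−0.81, SE 0.38). Lgals3, which encodes galectin-3, was at 20310, 11570 and 15490 CPM with NACs and 8787, 9215 and 8750 CPM with ACs (−0.82, SE 0.35), and Calr, which encodes the exposed eat-me signal calreticulin, at 1001, 776 and 527 CPM with NACs and 506, 520.1 and 444 CPM with ACs (−0.64, SE 0.35). The difference without the library labelled NAC replicate 1 was −0.48 for C1qc, −0.42 for C1qa and −0.41 for Calr. C1qa, C1qc, Lgals3 and Calr were picked after their values were seen, as the members whose groups did not overlap. Gas6, the ligand of MERTK and AXL, was at 320, 185 and 119.5 CPM with NACs and 158, 187 and 165 CPM with ACs (−0.28, SE 0.38). Cd5l, the secreted scavenger protein that the study is named for, was at 280.1, 176 and 111 CPM with NACs and 22.1, 173 and 119.9 CPM with ACs (−0.83, SE 0.58), with its lowest value in the library labelled AC replicate 1 and a difference of −0.37 without it. Without the library labelled AC replicate 2 the difference of Cd5l was −1.40. Tgm2 (−0.11) and Pros1 (0.05), the members at the upper end, were near 0. The list's median stayed negative under each alternative, from −0.719 to −0.381 with all libraries and from −0.883 to −0.466 with libraries left out.

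The engulfment machinery links the receptors to actin. Of 24 genes tested 17 were positive, with a median of 0.34 and 0 called. The AC libraries lay above the NAC libraries for 4 members (16.7% beside 5.84% of all genes) and below them for 0. Elmo1, part of the exchange factor that activates RAC1, was at 10.8, 22.3 and 14.7 CPM with NACs and 32.8, 27.3 and 26.6 CPM with ACs (0.87, SE 0.36). Actr3, an ARP2/3 subunit, was at 271, 729.8 and 261 CPM with NACs and 1205, 427 and 549 CPM with ACs (0.80, SE 0.49) with overlapping groups and a difference of 0.21 without the library labelled AC replicate 1, and Rac2, the RAC of blood cells, was at 556, 312 and 712 CPM with NACs and 298, 484 and 404 CPM with ACs (−0.40, SE 0.38). Without the library labelled NAC replicate 2 the difference of Actr3 was 1.45 and that of Rac2 −0.67. Without NAC replicate 3 that of Rac2 was −0.135. The list's median was 0.164 without the library labelled NAC replicate 1, 0.166 without AC replicate 1 and 0.0296 without AC replicate 1 and NAC replicate 3. The lysosome and phagosome list had 37 tested members, 24 of them negative, a median of −0.20, 2 members higher (5.41% beside 5.84% of all genes) and 3 lower (8.11% beside 4.5%) without overlap. With library totals alone this median was 0.0341, beside 0.29 over all genes. Ctsd, which encodes the abundant protease cathepsin D, was at 30640, 13780 and 26650 CPM with NACs and 14870, 10220 and 10780 CPM with ACs (−0.98, SE 0.39). Hexa, a subunit of β-hexosaminidase, was at 2145, 992 and 1378 CPM with NACs and 737, 961 and 721 CPM with ACs (−0.89, SE 0.38), while Rab5a of early phagosomes was at 4.14, 17.8 and 8.37 CPM with NACs and 20.8, 8.55 and 14.6 CPM with ACs (0.54, SE 0.50). Without the library labelled NAC replicate 1 the difference of Hexa was −0.55 and that of Rab5a 0.16, and that of Rab5a was 1.21 without NAC replicate 2.

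Targets of the LXRs did not move together. The list of LXR targets and cholesterol efflux genes had 25 tested members, 14 positive, a median of 0.09, and 2 members higher without overlap (8% beside 5.84% of all genes), Mertk and Abca1. Its median was 0.0244 without the library labelled NAC replicate 1, 0.185 without NAC replicate 3 and −0.0614 without AC replicate 1. Abca1, the exporter of cholesterol to apolipoprotein A-I, was at 31, 69 and 64.7 CPM with NACs and 159.6, 69.4 and 129.8 CPM with ACs (1.13, 95% interval 0.26 to 2.00). The lowest AC library and the highest NAC library differed by less than 1 CPM, so the separation was narrow. Abcg1, the partner exporter, was at 85.1, 67.9 and 64.1 CPM with NACs and 69, 62.5 and 72.1 CPM with ACs (−0.08, 95% interval −0.75 to 0.58), a span that leaves out a 2-fold change in either direction. Nr1h3, which encodes LXRα, was at 363, 369.8 and 319 CPM with NACs and 264, 502 and 465 CPM with ACs (0.24, SE 0.35). Its difference lay between 0.064 without the library labelled AC replicate 2 and 0.46 without AC replicate 1. Apoc1 (2.05, SE 0.95) was set by the library labelled AC replicate 1, at 9.19, 4.43 and 8.44 CPM with NACs and 79.9, 7.63 and 4.83 CPM with ACs, and was reversed without it. Scd2 (−1.27, SE 0.84) was set by the library labelled NAC replicate 3, at 6.83, 10.9 and 83.8 CPM with NACs and 21.8, 9.29 and 11.3 CPM with ACs. Cholesterol synthesis genes were balanced around 0, with 12 of 27 positive and a median of −0.05. This median lay between −0.0973 without the library labelled NAC replicate 1 and 0.167 without NAC replicate 3. With library totals alone it was 0.201, beside 0.29 over all genes. Dhcr7, the last enzyme of the pathway, was at 29.2, 13.1 and 31.7 CPM with NACs and 14.7, 16.8 and 14.2 CPM with ACs (−0.69, SE 0.38) and Hmgcs1, an early enzyme, at 2.24, 14.1 and 7.93 CPM with NACs and 17.8, 8.36 and 15 CPM with ACs (0.76, SE 0.54). The difference of Hmgcs1 was 0.32 without the library labelled NAC replicate 1 and 1.40 without NAC replicate 2.

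Genes of lipid-laden macrophages had a negative median. The list had 25 tested members, 18 negative, a median of −0.32, and 0 called. The groups did not overlap in 5 that were lower (20% beside 4.5% of all genes) and 2 that were higher (8% beside 5.84%). The list's median was −0.531 without the library labelled AC replicate 1, −0.187 without NAC replicate 3 and −0.185 without AC replicate 2, and −0.08 with library totals alone. Itgax, which encodes CD11c, was at 15.7, 14 and 51.1 CPM with NACs and 5.06, 9.02 and 14 CPM with ACs (−1.51, SE 0.53), and −0.66 without the library labelled NAC replicate 3. Trem2 belongs to the list as well. On the higher side were Lipa, the lysosomal acid lipase, at 649, 888 and 785 CPM with NACs and 1144, 1084 and 1047 CPM with ACs (0.51, SE 0.32), and Cpt1a, the entry enzyme of fatty acid oxidation, at 24.6, 45.6 and 42.4 CPM with NACs and 53.4, 53.2 and 60.7 CPM with ACs (0.58, SE 0.34), with 0.34 without the library labelled NAC replicate 1. Of 24 fatty acid oxidation genes tested, 3 were higher (12.5% beside 5.84% of all genes) and 3 lower (12.5% beside 4.5%) without overlap. Their median was −0.15, but 0.131 without the library labelled NAC replicate 2 and 0.016 without AC replicate 2. Acsl1, which activates fatty acids, was at 12.3, 19.6 and 11.2 CPM with NACs and 23.7, 27.1 and 24.6 CPM with ACs (0.82, SE 0.34), and Ech1, a mitochondrial isomerase, at 224, 152 and 176 CPM with NACs and 124, 137 and 120 CPM with ACs (−0.53, SE 0.32).

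The 10 genes of smallest p on the lower side held 3 of the S100 family of small calcium-binding proteins and the macrophage genes Folr2 and Acp5. Folr2 (chr7:101839988-101857194), the folate receptor of resident-type macrophages, was at 369.9, 323 and 664 CPM with NACs and 98.3, 125 and 197 CPM with ACs (−1.68, 95% interval −2.55 to −0.81). The highest AC library was well below the lowest NAC library, and untreated macrophages, at 80.3, 111 and 236 CPM, were below it as well. S100a11 (chr3:93520488-93526287) was at 267, 201 and 357 CPM with NACs and 112, 113 and 115 CPM with ACs (−1.27, SE 0.34). S100a6 (chr3:90612882-90624181) was at 548, 363 and 512 CPM with NACs and 226, 202 and 241 CPM with ACs (−1.08, SE 0.33), and S100a4 (chr3:90603771-90606045) at 93, 75.7 and 123 CPM with NACs and 60.1, 30.6 and 35.4 CPM with ACs (−1.21, SE 0.36). These 3 genes lie on chromosome 3, S100a4 and S100a6 close together and S100a11 further along, and for each the groups did not overlap. Acp5 (chr9:22126727-22135711), the tartrate-resistant acid phosphatase, was at 48.7, 28.9 and 134 CPM with NACs and 21.9, 14.9 and 26.2 CPM with ACs (−1.74, SE 0.50), with the library labelled NAC replicate 3 far above the others and a difference of −0.88 without it. Nme1 (chr11:93956979-93968521), a nucleoside diphosphate kinase, was at 35.4, 15.1 and 29.96 CPM with NACs and 6.29, 12.9 and 10.9 CPM with ACs (−1.40, SE 0.42). Crip1 (chr12:113146316-113153879), a LIM domain protein, was at 380.1, 285 and 299 CPM with NACs and 174, 104 and 148 CPM with ACs (−1.17, SE 0.34). Selenom (chr11:3514684-3517351), a selenoprotein of the endoplasmic reticulum, was at 113, 78.9 and 81.3 CPM with NACs and 40.7, 44.4 and 47.6 CPM with ACs (−1.03, SE 0.32), with a narrow spread in both groups.

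The other genes named on the higher side are known for unlike functions. Dph6 (chr2:114516416-114654964), an enzyme of diphthamide synthesis, was at 3.81, 4.27 and 4.15 CPM with NACs and 16.1, 9.95 and 10.4 CPM with ACs (1.57, SE 0.38), and the NAC libraries were nearly equal. Fmnl2 (chr2:52857860-53134202), a formin that elongates actin filaments, was at 6.27, 7.51 and 5.04 CPM with NACs and 25.7, 12.7 and 14.3 CPM with ACs (1.49, SE 0.39). Rassf4 (chr6:116633008-116673952), a Ras association protein, was at 67.2, 63.8 and 71.5 CPM with NACs and 203, 133 and 114 CPM with ACs (1.16, SE 0.33). For these genes the library labelled AC replicate 1 was the highest. Lrfn1 (chr7:28451980-28468242), a leucine-rich repeat adhesion protein, was at 4.26, 5.77 and 4.85 CPM with NACs and 9.33, 21.2 and 11.3 CPM with ACs (1.504, SE 0.42), and Rhbdf1 (chr11:32209585-32222300), an inactive rhomboid protein, at 9.19, 11.6 and 16.6 CPM with NACs and 27.1, 29.5 and 28.1 CPM with ACs (1.19, SE 0.35). The untreated means of Lrfn1 and Rhbdf1 were near the NAC means, with libraries at 2.96, 3.95 and 9.39 CPM and 10.8, 10.4 and 16.8 CPM. For 7 of the 10 genes named as higher and 9 of the 10 named as lower, the mean of the untreated libraries was nearer to the AC mean than to the NAC mean on log2(CPM + 1), as it was for 70.4% of all genes tested. Among genes whose groups did not overlap, this held for 79.5% of the higher and 82.7% of the lower.

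**Figure D2:**
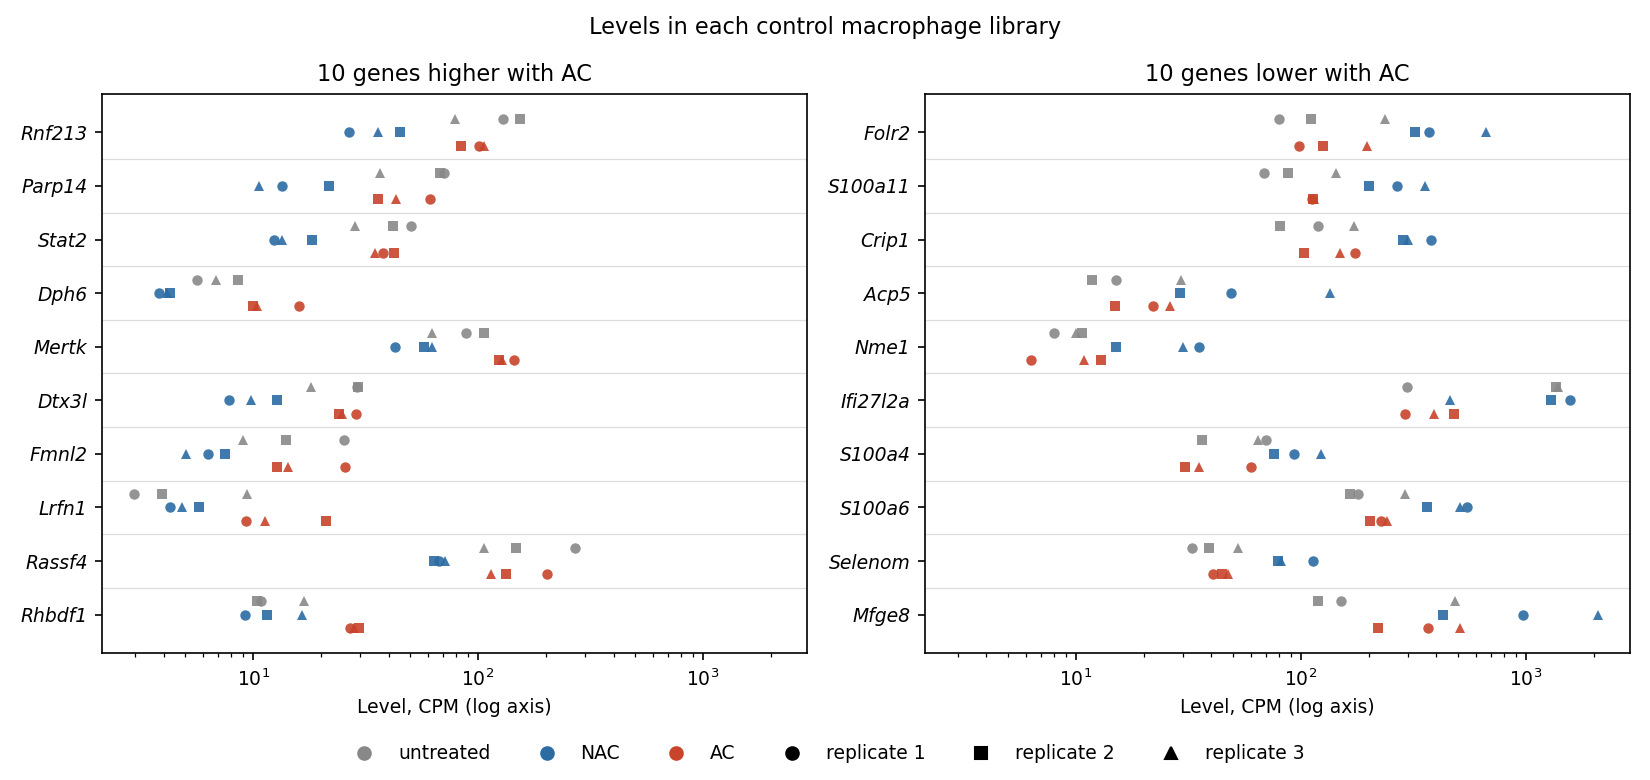
Level (CPM, log axis) in each of the 9 control macrophage libraries of the 10 genes named as higher (left) and the 10 named as lower with ACs (right). Grey, blue and red points are untreated, NAC and AC libraries and the point shape is the replicate; for most genes the grey points lie nearer the red than the blue ones, and only Ifi27l2a and Mfge8 have overlapping blue and red points.

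Inflammatory and resolution genes gave no common direction. Of 36 cytokine and chemokine genes 19 were expressed highly enough to be tested, 12 of them positive, with a median of 0.27 and 1 member higher and 1 lower without overlap (5.26% each, beside 5.84% and 4.5% of all genes). The direction rested on the library labelled AC replicate 1: without it the median was −0.35 with 5 of 19 positive, and without it and NAC replicate 3 it was −0.383. Without NAC replicate 2 it was 0.568, and without AC replicate 2 it was 0.17. Tnf was at 55, 34 and 39.8 CPM with NACs and 56, 57.8 and 40.8 CPM with ACs (0.27, 95% interval −0.45 to 0.99). Its difference lay between 0.12 without the library labelled NAC replicate 2 and 0.48 without NAC replicate 1. Il1b, an interleukin of early inflammation, was at 0.56, 0.791 and 0.315 CPM with NACs and 1.12, 2.19 and 1.29 CPM with ACs (1.49, SE 0.68), separate but at a low level. Cxcl9, a chemokine induced by interferon γ, was lower in the mean, with its highest value in the library labelled NAC replicate 2, at 2.02, 9.49 and 0.378 CPM with NACs and 1.12, 1.39 and 0.58 CPM with ACs (−1.92, SE 0.89), and its difference was −0.16 without that library. Of 38 NF-κB feedback and immediate early genes, 20 were positive and the median was 0.03. The NF-κB brake Tnfaip3 was at 4.59, 9.57 and 8.62 CPM with NACs and 23, 9.15 and 9.09 CPM with ACs (0.85, SE 0.46) and Birc3, an inhibitor of apoptosis, at 7.06, 18.8 and 9 CPM with NACs and 22.7, 15.5 and 18.2 CPM with ACs (0.70, SE 0.41). The difference of Tnfaip3 was 0.26 without the library labelled AC replicate 1, and that of Birc3 0.43 without NAC replicate 1 and 1.22 without NAC replicate 2. Among 30 resolution and alternative activation genes the median was −0.02 and 4 members were lower without overlap (13.3% beside 4.5% of all genes), Folr2 among them, while 0 were higher. Il10, the anti-inflammatory cytokine that efferocytosis is known to induce, was at 0.672, 1.5 and 0.944 CPM with NACs and 4.16, 1.06 and 1.42 CPM with ACs (1.05, 95% interval −0.43 to 2.52), and 0.24 without the library labelled AC replicate 1. Hmox1, the heme-degrading enzyme, was at 631, 658 and 496 CPM with NACs and 675, 794 and 453 CPM with ACs (0.12, 95% interval −0.63 to 0.86). The lysozyme gene Lyz2 was at 3678, 6624 and 1911 CPM with NACs and 5778, 3138 and 3176 CPM with ACs (−0.01, 95% interval −0.99 to 0.98). Genes for antigen presentation and costimulation were negative in 16 of 21, with a median of −0.32. Without the library labelled NAC replicate 1 the median was 0.0188 with 12 of 22 positive, and without another library it lay between −0.814 (AC replicate 2) and −0.112 (AC replicate 1). It was −0.0225 with library totals alone. The members ranged from H2-D1, a class I heavy chain, at 4866, 4885 and 4972 CPM with NACs and 1797, 3000 and 3376 CPM with ACs (−0.84, SE 0.36), and the peptide transporter Tap2, at 73.6, 35.9 and 34.3 CPM with NACs and 19.4, 29.8 and 26.9 CPM with ACs (−0.90, SE 0.38), to the costimulator Cd86, at 71.5, 119.9 and 25.7 CPM with NACs and 358, 118 and 86.6 CPM with ACs (1.38, SE 0.58). The difference of Tap2 was −0.47 without the library labelled NAC replicate 1, and that of Cd86 0.50 without the library labelled AC replicate 1.

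Most genes of oxidative phosphorylation and of the ribosome had a negative difference that did not pass the test. Of 34 subunits of oxidative phosphorylation 29 were negative, the median was −0.35, and 7 (20.6% beside 4.5% of all genes) were lower and 0 higher without overlap. Without the library labelled NAC replicate 1 the median was −0.21, and without NAC replicate 3 and AC replicate 1 it was −0.545. Ndufa1, a subunit of complex I, was at 37.6, 22 and 20.1 CPM with NACs and 15.2, 10.2 and 14.2 CPM with ACs (−1.004, SE 0.37), Cox5a, a subunit of complex IV, at 168, 95.8 and 75.4 CPM with NACs and 79.2, 57 and 58 CPM with ACs (−0.80, SE 0.37), and Sdhd, a subunit of complex II picked after its value was seen, at 59.6, 52.1 and 38.9 CPM with NACs and 34.2, 27.9 and 28.1 CPM with ACs (−0.73, SE 0.32). The 8 mitochondrially encoded genes that were tested had a median of −0.09 and no member without overlap. Of 45 cytosolic ribosomal proteins 36 were negative, the median was −0.34, and 7 (15.6% beside 4.5%) were lower without overlap. The size rested on single libraries: the median was −0.183 without NAC replicate 1, −0.188 without AC replicate 3, −0.724 without AC replicate 1 and −0.863 without AC replicate 1 and NAC replicate 3. Their extremes were Rpsa at 1958, 808 and 1044 CPM with NACs and 561.8, 736 and 569 CPM with ACs (−1.02, SE 0.39), Rps29 at 1097, 358 and 532 CPM with NACs and 296, 407 and 286 CPM with ACs (−0.998, SE 0.42) and, on the other side, Rpl7 at 585, 689 and 449 CPM with NACs and 1756, 602 and 684 CPM with ACs (0.82, SE 0.43). The difference of Rpl7 was 0.16 without the library labelled AC replicate 1, and without NAC replicate 1 that of Cox5a was −0.40, of Rpsa −0.57 and of Rps29 −0.43. Ribosomal protein genes have many processed pseudogenes, and how reads shared with them were assigned is not known. Of 30 glycolysis and hypoxia genes 19 were negative, with a median of −0.15, which was 0.103 with library totals alone, −0.0595 without the library labelled AC replicate 1 and −0.022 without that and NAC replicate 3. Ldha, lactate dehydrogenase, was at 1043, 545 and 1254 CPM with NACs and 409.7, 672 and 490.1 CPM with ACs (−0.84, SE 0.39), and Hif1a, the hypoxia regulator, at 11.7, 55.6 and 12.5 CPM with NACs and 59.9, 32.2 and 41 CPM with ACs (0.75, SE 0.54). The difference of Hif1a lay between 0.38 without the library labelled NAC replicate 1 and 1.88 without NAC replicate 2. Library totals alone moved the median of all genes from 0.05 to 0.29, and with it the medians of the oxidative phosphorylation and ribosomal lists to −0.0856 and −0.0976, still below that of all genes. The medians of the fatty acid oxidation and the NRF2, antioxidant and iron lists became positive with it, at 0.0421 and 0.111.

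Genes of the unfolded protein response and of proliferation mostly had a negative difference, and heat shock genes were balanced around 0. Of 32 genes of the unfolded protein and integrated stress response 21 were negative, the median was −0.21, and 8 (25% beside 4.5% of all genes) were lower and 0 higher without overlap. The median was −0.0593 with 15 of 32 positive without the library labelled NAC replicate 3, −0.136 without AC replicate 1 and −0.356 without AC replicate 2. With library totals alone it was 0.0661, beside 0.29 over all genes. Sdf2l1, an endoplasmic reticulum chaperone factor, was at 86.5, 55.1 and 56.6 CPM with NACs and 41, 33 and 31.8 CPM with ACs (−0.90, SE 0.33). Ddit3, which encodes the stress factor CHOP, was at 62.5, 41 and 46.8 CPM with NACs and 10.2, 33.9 and 34.8 CPM with ACs (−0.91, SE 0.44), whereas Chac1, a glutathione-degrading enzyme of the same response, was at 3.81, 3.16 and 6.8 CPM with NACs and 9.33, 7.69 and 5.09 CPM with ACs (0.68, SE 0.44). Among 31 NRF2, antioxidant and iron genes, Gpx1, the cytosolic glutathione peroxidase, was at 1493, 714 and 1249 CPM with NACs and 486, 519.8 and 537 CPM with ACs (−1.16, SE 0.37), and Ftl1, the ferritin light chain, at 51870, 24630 and 40090 CPM with NACs and 21530, 20360 and 18720 CPM with ACs (−0.94, SE 0.38). Catalase (Cat) went the other way, at 12.8, 27.4 and 14.1 CPM with NACs and 54.5, 29.9 and 32 CPM with ACs (1.11, SE 0.40), and over the list 4 were lower (12.9% beside 4.5%) and 1 higher (3.23% beside 5.84%) without overlap. The 20 heat shock genes had a median of −0.01, with Hspa1b, an inducible HSP70, at 6.27, 2.93 and 5.16 CPM with NACs and 7.42, 5.84 and 31.8 CPM with ACs (1.67, SE 0.60) and the cochaperone Bag3 at 55.5, 36.9 and 58.4 CPM with NACs and 19.2, 37.1 and 30.3 CPM with ACs (−0.79, SE 0.36). The difference of Hspa1b was 0.47 without the library labelled AC replicate 3. Of 32 proliferation genes 29 were negative, with the lowest median of the 26 pathway lists, −0.69, and 3 members were lower without overlap (9.38% beside 4.5%). The bridging list had the lower median with limma-voom (−0.594 beside −0.505) and without the library labelled NAC replicate 3 (−0.818 beside −0.182). Without NAC replicate 3 and AC replicate 1 it also did so (−0.804 beside −0.104). Other lists then lay below the proliferation list as well, among them the ribosomal (−0.863) and oxidative phosphorylation (−0.545) lists. Ccne1, cyclin E1, was at 3.7, 3.88 and 7.05 CPM with NACs and 1.24, 2.39 and 2.45 CPM with ACs (−1.24, SE 0.50). Foxm1, a transcription factor of dividing cells, was at 3.36, 4.11 and 7.37 CPM with NACs and 0.787, 2.25 and 3.1 CPM with ACs (−1.24, SE 0.56), and Mcm7, a helicase subunit picked after its value was seen, at 31.3, 47.2 and 50.4 CPM with NACs and 22.5, 29.98 and 20.2 CPM with ACs (−0.82, SE 0.34). Ccnd1, cyclin D1, had the highest difference of the list, at 6.39, 10.8 and 8.37 CPM with NACs and 3.6, 15.6 and 16.3 CPM with ACs (0.50, SE 0.50). Ddit3 had a difference of −0.54 without the library labelled AC replicate 1, and Chac1 of 1.08 without NAC replicate 3. That of Ccnd1 lay between 0.20 without AC replicate 3 and 0.90 without AC replicate 1. The median proliferation gene stood at −0.39, 0.23 and 0.79 with NACs and −0.48, −0.11 and −0.08 with ACs, so the groups overlapped, and without the library labelled NAC replicate 3 the median was −0.182. Without NAC replicate 3 and AC replicate 1 it was −0.104. The median B cell marker followed the libraries in a similar order, at −0.22, 0.18 and 0.52 with NACs and −0.51, −0.15 and −0.11 with ACs. So did the median of the 4 tested megakaryocyte, mast cell or basophil markers, at −0.54, 0.33 and 0.51 with NACs and −0.37, −0.22 and 0.11 with ACs, and their part in the result was not tested. The cell death list had a median of 0.03, with Ripk1, a kinase of necroptosis and inflammation, at 8.29, 20.4 and 12.7 CPM with NACs and 24.6, 27.5 and 27 CPM with ACs (0.95, SE 0.38) and the caspase inhibitor Xiap at 8.4, 19.2 and 12.2 CPM with NACs and 42.5, 17.4 and 22.6 CPM with ACs (1.05, SE 0.42). The groups of Xiap overlapped, and its difference was 0.59 without the library labelled AC replicate 1. The polyamine list had a median of 0.07, and its rate-limiting enzyme Odc1 was at 48.7, 66.6 and 38.6 CPM with NACs and 30.8, 28.9 and 28.8 CPM with ACs (−0.79, SE 0.33). The clustered histone genes had a median of −0.02. The 24 efferocytosis genes that the study listed, a list made on these samples and so no independent evidence, had 23 tested members, a median of −0.07, 1 member higher (4.35% beside 5.84% of all genes) and 3 lower (13% beside 4.5%) without overlap. With 1 library left out this median lay between −0.0341 (AC replicate 1) and 0.0796 (NAC replicate 2). With library totals alone it was 0.181.

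**Figure D3:**
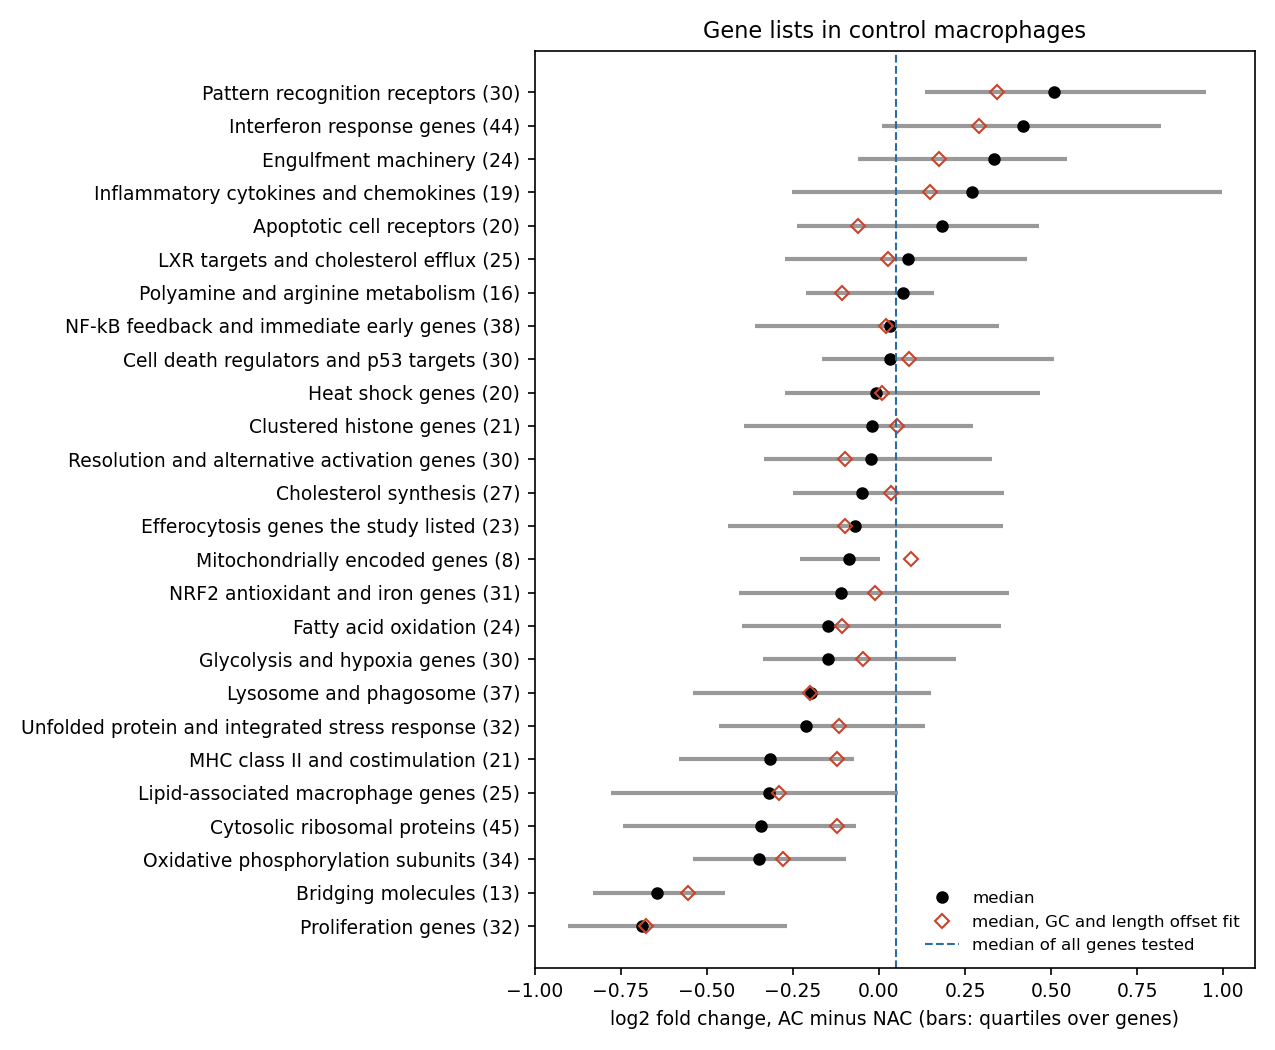
Median log2 fold change of ACs against NACs (filled points) with the quartiles over genes (bars) for the 26 gene lists, with the number of tested members in parentheses; open diamonds are medians from the fit with an offset for both GC content and exonic length, and the dashed line is the median of all genes tested (0.05). Pattern recognition and interferon genes lie highest, at 0.51 and 0.42, and bridging molecules and proliferation genes lowest, at −0.64 and −0.69.

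Long genes tended to be higher and short genes lower with ACs. Across genes, which are not independent replicates, the log2 fold change had a Spearman correlation of 0.294 with exonic length and −0.361 with GC content. The median log2 fold change was −0.19 in the 2369 shortest genes and 0.30 in the longest group of like size. Of these shortest genes 9.84% were lower and 2.7% higher without overlap, and of the longest 1.14% and 13.4%. Libraries of a group differed in the same property: the correlation of a library's deviation with GC content was 0.544, −0.127 and 0.52 in the NAC libraries and −0.408, 0.59 and 0.169 in the AC libraries. With an offset per library for both properties, the correlations were 0.0189 and −0.0036, and 0 genes were called. The median of the interferon list was then 0.29, of the pattern recognition list 0.34, of the engulfment list 0.17, of the receptors −0.06, of the bridging molecules −0.56, of the oxidative phosphorylation list −0.28, of the ribosomal list −0.12 and of the proliferation list −0.68. The log2 fold change of Mertk was 1.09, of Stat2 1.44, of Rnf213 1.20, of Folr2 −1.45 and of S100a6 −0.79 in that fit. Of the lists, ribosomal proteins had short transcripts (median 1770 bases beside 3912 over all genes) and pattern recognition genes a low GC content (46.5% beside 50.4%).

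**Figure D4:**
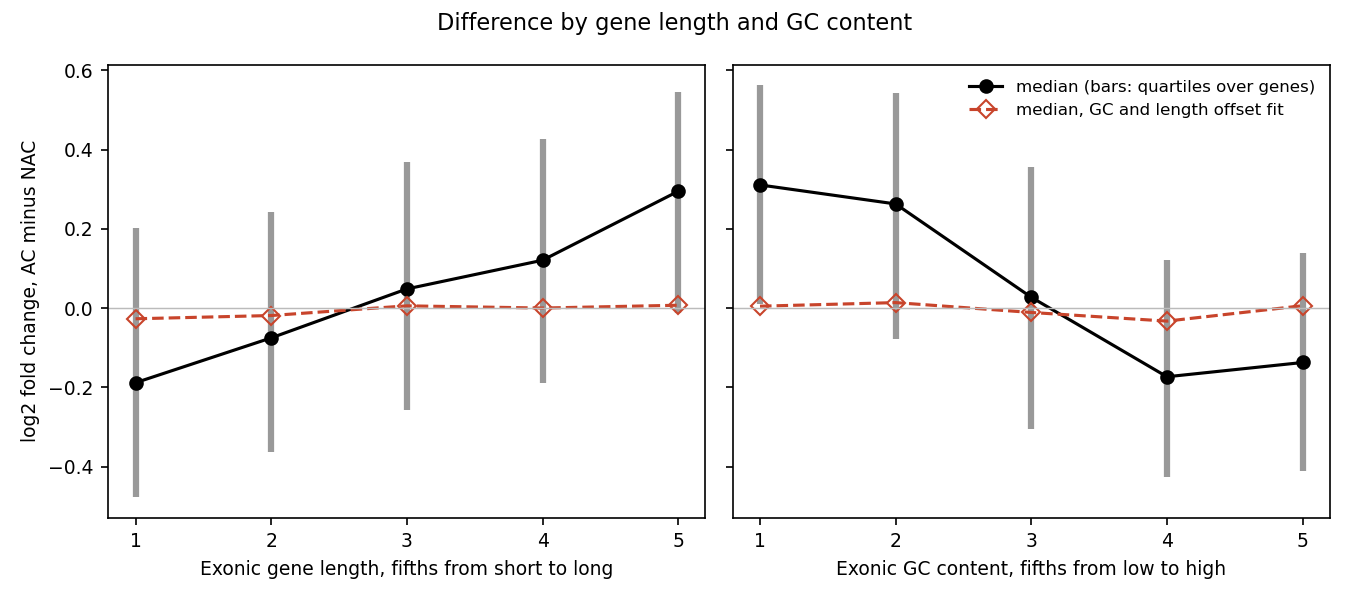
Median log2 fold change of ACs against NACs (filled points) with quartiles over genes (bars) in 5 groups of like size of the tested genes by exonic length (left) and exonic GC content (right); open diamonds are the medians from the fit with an offset for both. The median goes from −0.19 in the shortest to 0.30 in the longest genes, and lies near 0 in every group with the offset.

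For many genes the contrast had another sign in libraries labelled HDAC3 KO. Across the 11844 genes, 59.3% had opposite signs in the 2 labelled genotypes, and the Spearman correlation of the log2 fold changes was −0.26. Among genes whose groups did not overlap in the control libraries, the signs were opposite for 41.2% of the 692 higher and 69.8% of the 533 lower. They were opposite for 7 of the 10 genes named as higher and 8 of the 10 named as lower. The interaction of genotype with ACs or NACs, fitted on 12 libraries, was called for 10 of 13076 genes (0.0765%), and 2620 had an unadjusted p under 0.05. Of the same 13076 genes limma-voom called 7 and DESeq2 762, and DESeq2 called 741 of the 27916 genes with a count. Leaving out a single library gave from 0 to 826 calls, and without the libraries labelled NAC replicate 3 and AC replicate 1 of the control genotype there were 2, so that the set of calls rests on single libraries. In all 10 genes the sign in the control libraries was opposite to that in the KO libraries. Folr2, for which the control difference in this fit was −1.70, had 1.58 in the KO libraries. Itgax was at −1.53 and 2.47, Sdc1, which encodes syndecan-1, at −1.23 and 2.07, and Stmn1, a microtubule regulator of dividing cells, at −0.95 and 1.59. The interferon-inducible Samd9l was at 0.95 and −3.15, and its levels were 4.92, 12.4 and 4.62 CPM with NACs and 14.5, 10.1 and 17.9 CPM with ACs in the control libraries, against 21.6, 19.5 and 30.8 CPM with NACs and 2.33, 2.17 and 3.65 CPM with ACs in the KO libraries. In the control libraries alone, the groups of Samd9l overlapped, and in the KO libraries they were far apart. Of the genes named above, Mertk had a KO difference of −0.15, Stat2 of 0.34, S100a11 of 1.17 and Mfge8 of 1.59.

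**Figure D5:**
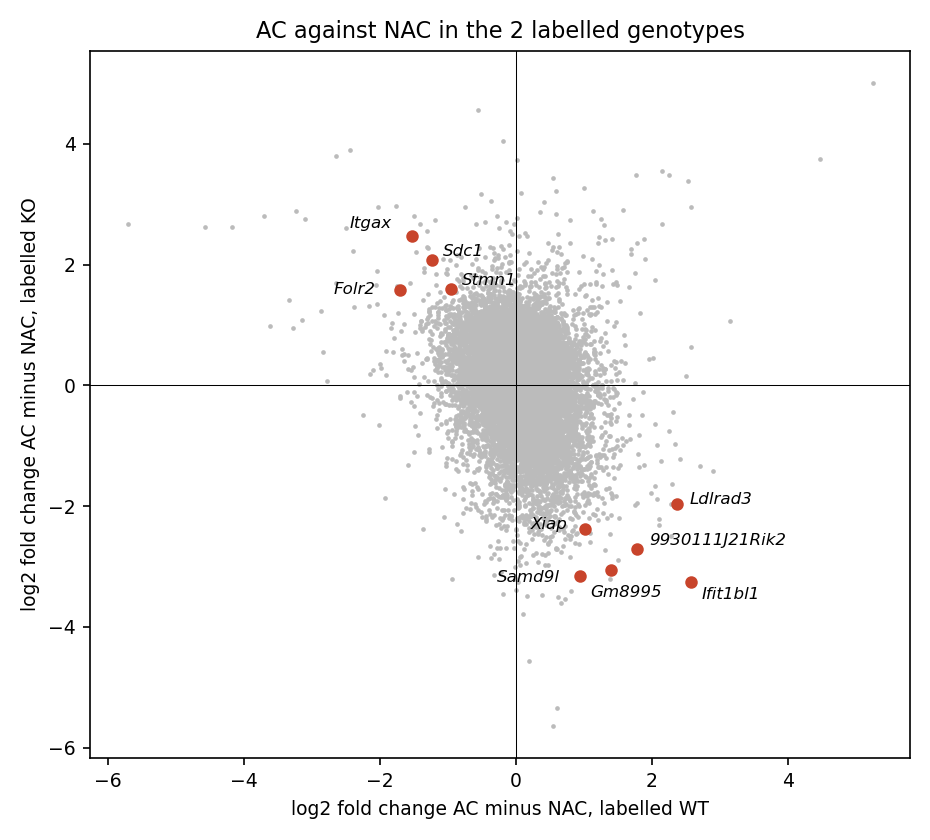
Log2 fold change of ACs against NACs in libraries labelled WT (horizontal) and labelled KO (vertical) for the 11844 genes tested, with the 10 genes called for the interaction in red, at their values in the fit of 12 libraries. The red points lie in the upper left and lower right, where the 2 signs are opposite.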

How the data were processed

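RNA of control macrophages was extracted with TRIzol and libraries were prepared with the NEBNext Ultra II kit. Per the submitters' processing notes, Trimmomatic 0.36, STAR 2.5.2b and featureCounts of Subread 1.5.2 were used with the genome build GRCm38. The roles and the strand setting are not given in the sources used here, and without strand, overlapping and antisense genes cannot be told apart. The deposited files hold raw counts per gene, whole numbers for 49315 Ensembl genes in each library, with no normalization by the authors. Coordinates and exonic length came from the deposited count files. Names, types and GC content came from GENCODE M21, in which 49056 identifiers were found, 44858 of them with the same start and end as in the count files.

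Counts were fitted in R 4.3.3 with edgeR 4.0.16: filterByExpr (minimum count 10, minimum total 15), TMM scaling, glmQLFit (robust) and glmQLFTest on the 6 libraries, with p adjusted by the Benjamini-Hochberg method over all genes tested and a threshold of 0.05. The study's methods use DESeq2, which was run as an alternative (1.42.0) with limma-voom (3.58.1). The interaction was fitted on 12 libraries. CPM use TMM factors over the 9 control libraries. For the GC and length offset, smooth terms were estimated library by library in mgcv 1.9.3. Named genes were the 10 of smallest p in each direction (protein-coding, mean of at least 5 CPM), since no gene was called, a set of fixed genes, and up to 4 members at the ends of each list. The groups, members and lists were chosen with earlier results of these data known. Tests were checked on simulated counts. Replicates are described as biological, but the labels name no animals. The correlations of deviations from the group mean were −0.118, −0.429 and 0.178 for like replicate numbers and −0.275 to 0.35 for unlike ones. With 3 libraries in a group these values are tied together, so they cannot decide whether libraries were paired. Counts limit precision at low levels by counting error as well as by the spread between libraries.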

Additional observations from a re-analysis of the deposited data

Results flagged for a closer look

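For 10 genes the difference between ACs and NACs itself differed between the labelled genotypes in the interaction test of edgeR. The values are the difference in the libraries labelled KO minus that in the libraries labelled WT, on the log2 scale. The interferon-related genes and others that were higher with ACs in the control libraries had a negative value: Samd9l −4.10, Gm8995 −4.47, 9930111J21Rik2 −4.49, Ifit1bl1 −5.83, Xiap −3.40 and Ldlrad3 −4.33. The genes that were lower with ACs in the control libraries had a positive value: Stmn1 2.54, Itgax 4.00, Sdc1 3.31 and Folr2 3.28. The adjusted p was 0.0114 for Samd9l and Gm8995 and between 0.0296 and 0.0422 for the other 8. None of the 10 reversed under an alternative. Samd9l and Gm8995 lost the call in 4 alternatives besides those chosen after the data were seen, all of them with 1 library left out, and the other 8 in 9 to 12. Gm8995 is a transcribed pseudogene, so reads of related genes may have been counted on it.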

How the results depend on the processing

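The count of called genes between ACs and NACs stayed at 0 with limma-voom, the Wald test of DESeq2 (25331 genes, or the 11844 that pass the filter), its size factors in edgeR, scaling by totals, at least 10 counts in every library, the replicate block, the GC and length offset with and without the block, and the fits of 9 or 18 libraries. Without a filter 47 genes were called, 22 higher and 25 lower. Of these, 32 had not been tested otherwise, and in 41 of the 47 a single library held most of the counts. Parp14, Folr2, Acp5 and Mfge8 were among the 47. Leaving out 1 library gave 0 to 1 calls, and leaving out the libraries labelled NAC replicate 3 and AC replicate 1, chosen after the data were seen, gave 3. At an unadjusted p under 0.05, the counts with 1 library left out were 262 to 1580, the highest without NAC replicate 2. The replicate block gave 220 such genes and 0 calls. The labels tie no replicate number to an animal, so whether libraries were paired across groups is not known.

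Genes with AC above NAC numbered 1148 with library totals alone, against 227 with AC below, so that 83.5% were higher beside 56.5%. Without a filter they numbered 954 above and 864 below. Leaving out 1 library gave 966 to 2351 above and 740 to 1752 below, and leaving out both libraries named above gave 2227 and 1933. Fewer libraries overlap less often by construction.

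The interaction called 38 genes with the size factors of DESeq2, 3 with library totals alone, 741 of 27916 genes with the Wald test of DESeq2 and 762 of 13076 with that test on the filtered genes (added after the data were seen), 537 of 27916 in edgeR without a filter, 242 with the GC and length offset, 93 with the offset and replicate block, 3 with all 18 libraries in the fit, and 10 with the replicate block. Leaving out 1 library gave 0 to 826 calls: 782 without WT NAC replicate 2, 228 without WT AC replicate 2 and 826 without KO AC replicate 2, but 0 without WT NAC replicate 1 or 3, KO NAC replicate 3 or KO AC replicate 1. Leaving out both libraries labelled NAC replicate 3 and AC replicate 1 of the controls gave 2. The cause was not tested.

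Of 2025 values of named genes under alternatives, 1977 kept their direction and call, 4 passed the threshold (without a filter) and 44 reversed. With library totals alone the log2 fold changes of Lyz2, Abcg1, Gas6, Itgb3 and Tgm2 were 0.17, 0.18, 0.00824, 0.080 and 0.18. Lyz2 was 0.11 with limma-voom and 0.13 with the replicate block. With the offset Lyz2, Abcg1, Tgm2 and Pros1 were 0.040, 0.047, 0.025 and −0.093, and with offset and block 0.12, 0.039, 0.044 and −0.041, and Gas6 0.050. Without both libraries named above Itgb3 was 0.23, Hmox1 −0.0530, Tgm2 0.10, Pros1 −0.39, Rac2 0.028, Actr3 −0.041, Scd2 0.21, Apoc1 −0.13 and Clec4e −0.024. With 1 library left out the ranges were −0.37 to 0.53 for Lyz2, −0.066 to 0.82 for Cd36, −0.17 to 0.041 for Abcg1, −0.0035 to 0.76 for Axl, −0.57 to 0.16 for Gas6, −0.50 to 0.20 for Itgb3, −0.076 to 0.31 for Hmox1, −0.89 to 0.026 for Plaur, −0.58 to 3.19 for Ager, −0.38 to 0.11 for Tgm2, −0.32 to 0.81 for Pros1, −1.75 to 0.66 for Scd2 and −0.23 to 2.56 for Apoc1. The cause was not tested.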

Other observations

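Among genes with few counts, some had most of their counts in a single library and others were present in all 3 NAC libraries and nearly absent with ACs. The genes given here were chosen after their values were seen, from the 47 called without a filter. Tcf21, Myh6, Actc1 and Itln1, known from heart and mesothelium, had 54, 49, 46 and 66 counts in the library labelled AC replicate 3. In the other 5 libraries they had at most 6 counts, Actc1 in AC replicate 2. Sec14l3, known from airway epithelium, had 141 counts in the same library and at most 9 elsewhere, and Cldn5, of endothelium, 132 and at most 11.

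The following genes, known from neural tissue or development, had counts in each NAC library. Stmn2, of growing neurons, had 83, 26 and 39 counts with NACs and 12, 0 and 14 with ACs. Six3, a transcription factor of forebrain and eye, had 56, 15 and 19 with NACs and 3, 0 and 1 with ACs. Hand2, a transcription factor of heart and sympathetic neurons, had 123, 16 and 35 with NACs and 10, 0 and 0 with ACs, and Isl1, of motor and sensory neurons, 43, 4 and 9 with NACs and 1, 0 and 0 with ACs. All 3 NAC libraries were above all 3 AC libraries for each of these genes, as for Elavl4. In Stmn2, Six3, Hand2 and Isl1 the library labelled NAC replicate 1 held the most counts. The fixed list of 10 neuron markers did not share this separation: 2 were tested, 1 positive and 1 negative, and neither was without overlap. The median of these 2 stood at 0.30, −0.19 and 0.04 with NACs and at −0.76, 0.49 and 0.13 with ACs.

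The library labelled NAC replicate 3 held 182 counts of Epcam and 78 of Cldn4, both of epithelium, and 165, 125 and 67 counts of the immunoglobulin segments Ighv1-28, Ighv1-25 and Ighv1-34. In the other 5 libraries each of these segments had at most 6 counts. The library labelled AC replicate 1 held 51 counts of Ighv2-6 and 61 of Ighe against at most 1 in the others. All of these are small beside totals of 9385094 to 18306347 counts.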
